A study of Drosophila melanogaster with 6 samples.

Results

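The genes described here are 10 of the 14233 genes counted in flow-sorted wing disc cells of Drosophila larvae, chosen by name as actomyosin and actin regulators. They are the small GTPase gene Rho1, the formin gene dia, the actin polymerase gene ena, the myosin genes sqh and zip, the actin monomer and turnover genes chic and tsr, the crosslinker genes sn and cher, and the membrane linker gene Moe. All 10 passed the filter on low counts, as did 9134 genes in all.

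Actin filaments and non-muscle myosin II form the contractile network under the membrane of epithelial cells. Rho1 bound to GTP opens the formin Diaphanous and promotes phosphorylation of the regulatory light chain of myosin II, while profilin feeds actin monomers to formins and Ena, cofilin severs old filaments, and Fascin, Filamin and Moesin bundle, crosslink or anchor them. In the wing disc this network sets cell shape and tension, and it takes part in the extrusion and spread of cells that carry activated Ras.

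The compared cells came from wandering third-instar larvae that had spent 6 days at 18 °C and then 3 days at 29 °C. All larvae carried Ap>Gal4, a driver active in the dorsal compartment of the disc, UAS-myrT, a membrane-bound Tomato, and TubGal80ts, the temperature-sensitive repressor that blocks Gal4 at 18 °C. One genotype also expressed RasV12, a Ras protein locked in its active state, and in its place the control larvae had GFP-i, a name that the labels do not spell out. Discs were dissociated with trypsin, dorsal cells with active transgenes were sorted by flow cytometry, and 150000 cells gave each of the 3 libraries per genotype. The 3' ends of mRNAs were read in 100-nucleotide single reads, so the counts record how many transcripts ended in a gene and not their length or their protein. Whether each replicate is a separate set of larvae is not stated in the labels, and p-values here cover only the spread among these libraries, which may be technical.

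The 6 libraries held 11070295 to 15581752 counts, of which ribosomal RNA rows took 10.1 to 17.3%. A floor of 3 counts equals 0.177 to 0.281 CPM, a count scaled to library depth by the TMM method, counting error only. Levels below are in this CPM unit, differences are log2 RasV12 over GFP-i, and a gene was said to rise or fall where the adjusted p of the edgeR quasi-likelihood test over all tested genes was under 0.05. The driver gene ap stood at 234, 207 and 267 CPM in RasV12 and at 227, 308 and 278 CPM in GFP-i, and its difference of -0.20 did not pass the test (adjusted p = 0.438). Libraries of 1 genotype differed from each other by gene length. Genes spanning over 20 kb were lower in RasV12 replicate 2 than in RasV12 replicate 3 (median log2 difference -0.40, 975 genes) and lower in GFP-i replicate 1 than in GFP-i replicate 2 (-0.33). Each pair is the one farthest apart within its genotype on the second axis of a principal component analysis. RasV12 replicate 1 and GFP-i replicate 3 lay between. These library differences recur below beside the members they touch.

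Rho1 was the member that rose, and it did so with little spread. Of the 10 genes, 1 was higher in RasV12, none was lower and 9 did not pass, where 9.15% of all tested genes were higher, 5.68% lower and 14.8% changed in either direction. Before adjustment, 4 members had a p under 0.05 (Rho1, dia, ena and tsr), against 28.3% of all tested genes. The log2 difference was positive for 9 of 10 members, against 51.7% of tested genes, with a median of 0.33 against 0.02 over all genes. The members' median was 0.205 with RasV12 replicate 2 left out and 0.212 with GFP-i replicate 2 left out. With scaling by library size only, 6 of 10 were positive and the members' median was 0.17, where the median of all genes was -0.14. The 2 groups of libraries did not overlap for 3 members, Rho1, dia and ena, all higher in RasV12, a state found in 18.6% of tested genes, or 33.6% counting both directions.

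**Figure D1:**
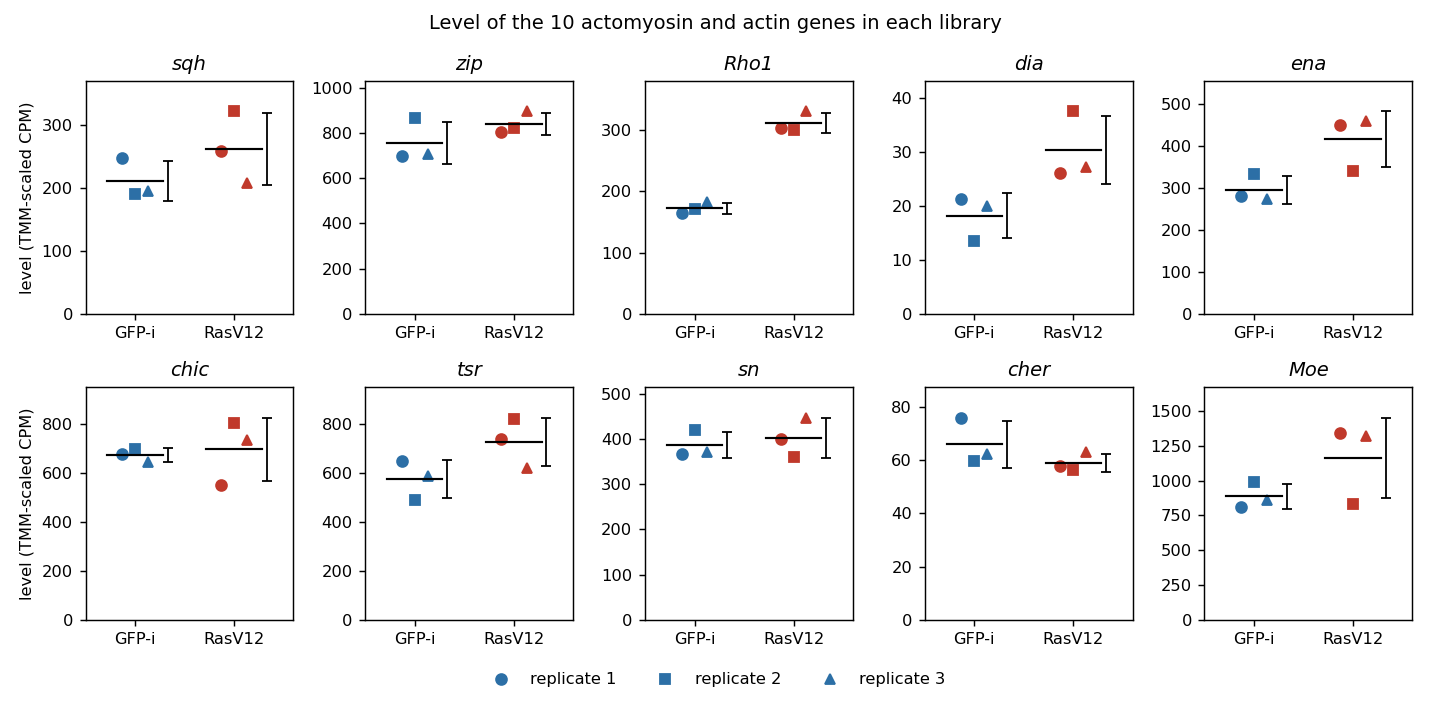
Each panel shows 1 gene, with its level in TMM-scaled CPM on a linear axis from 0, for the 3 GFP-i libraries in blue and the 3 RasV12 libraries in red. Horizontal lines are group means, bars are 1 SD, and the point shape gives the replicate number. The groups stand apart for Rho1, dia and ena and overlap for the other members.

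Rho1 encodes the small GTPase from which both the formin and the myosin branches run. The gene lies on 2R, 16102687 to 16107229 on the plus strand (dm6), spans 4543 bp and is annotated with 6 transcripts that end at 2 sites. Its level was 304, 300 and 331 CPM in RasV12 replicates 1, 2 and 3. In GFP-i it was 164, 172 and 182 CPM. Every RasV12 library was higher than every GFP-i library, and the coefficient of variation was 5.41% within RasV12 and 5.22% within GFP-i. The means were 312 ± 16.8 and 173 ± 9.01 CPM (SD, n = 3 each). The log2 difference was 0.85 ± 0.12 (SE, 95% confidence interval 0.59 to 1.11; edgeR adjusted p = 0.00101), which is 1.80-fold (1.51 to 2.16). Ranked by p, Rho1 came at position 257 of the 9134 tested genes. It passed in all 16 alternative fits, where the difference ran from 0.69 to 0.88.

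In the authors' deposited table Rho1 also has a log2 fold change of 0.82 with an adjusted p of 8.14e-08. The same deposited table gives dia a log2 fold change of 0.71 with an adjusted p of 0.0247 and ena one of 0.46 with an adjusted p of 0.0525. That table marks 8.62% of its genes with an adjusted p as higher in RasV12 at the same threshold.

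The 3 genes with the pattern over the 6 libraries most like that of Rho1 were RhoGEF3, Sdr and melt, among 4984 genes with a mean of at least 10 CPM. Likeness was the mean absolute difference between log2 levels, each centred on its own mean. The genes were picked by likeness to a gene that rose, so rises of similar size and low p-values follow from the choice. Their values are given as description only. RhoGEF3, a guanine nucleotide exchange factor gene, differed from Rho1 by 0.0436 log2 units on average. Its level was 71.8, 65.9 and 83.8 CPM in RasV12 and 39.4, 41.1 and 42.6 CPM in GFP-i, a difference of 0.85 ± 0.14 (adjusted p = 0.00265). Sdr, which encodes a secreted decoy of the insulin receptor, followed at 0.0530, with 15.6, 13.5 and 16.3 CPM against 8.12, 8.37 and 8.46 CPM (difference 0.86 ± 0.17, adjusted p = 0.00826, and 0.0560 when GFP-i replicate 3 was left out). For melt, which encodes a membrane-associated protein with a pleckstrin homology domain, the mean difference was 0.0563 and the levels were 99.96, 95.03 and 104 CPM against 61.1, 57.4 and 60.5 CPM (0.74 ± 0.12, adjusted p = 0.00258).

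Downstream of Rho1, dia was higher in every RasV12 library than in every GFP-i library, but it stood at the edge of the test. The gene encodes Diaphanous, a formin that nucleates and elongates unbranched actin filaments, and lies on 2L, 20758144 to 20768053 on the plus strand. Levels were 26.1, 37.5 and 27.2 CPM in RasV12 and 21.2, 13.5 and 19.9 CPM in GFP-i. The highest RasV12 value was that of replicate 2, and the lowest GFP-i value also that of replicate 2. Means were 30.3 ± 6.29 and 18.2 ± 4.12 CPM (SD, n = 3 each), a log2 difference of 0.73 ± 0.22 (SE, 95% confidence interval 0.25 to 1.22), or 1.66-fold. The adjusted p of 0.0501 lay just past the threshold. Under DESeq2 it was 0.0254, and dia and Rho1 were then called where 8.46% of genes were higher. With no filter it was 0.0367 (5.42% of genes higher), and with a minimum of 10 CPM in 3 libraries it was 0.0434 (12.4% higher). Without any 1 library the adjusted p lay between 0.0680 and 0.198, so in none of those 6 fits was dia called.

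The annotation gives dia 4 distinct 3' ends spread over 5912 bp. A gene total from 3' reads does not show which of those ends was used.

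ena encodes Enabled, which binds growing filament ends and speeds their elongation, and lies on 2R, 19141632 to 19163705 on the plus strand. It was measured at 448, 340.0 and 459 CPM in RasV12 and at 279, 333 and 273 CPM in GFP-i. RasV12 replicate 2 and GFP-i replicate 2 came closest to each other, and the other libraries stood well apart. The difference was 0.50 ± 0.15 (SE, 95% confidence interval 0.16 to 0.83; 1.41-fold) with an adjusted p of 0.0530, which missed the threshold. Without RasV12 replicate 2 the difference was 0.62 and passed (adjusted p = 0.00528, with 9.96% of tested genes higher). With the 10 CPM minimum it passed as well (adjusted p = 0.0441). With any other single library left out it did not pass, and over the 6 such fits the difference ran from 0.38 to 0.62 and the adjusted p up to 0.266.

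The myosin II genes among the members, sqh and zip, had overlapping levels in the 2 genotypes and did not pass the test. sqh encodes the regulatory light chain, whose phosphorylation activates the motor, and lies on X, 6223061 to 6225140 on the minus strand, a span of 2080 bp. Its level was 258, 322 and 208 CPM in RasV12 and 247, 191 and 195 CPM in GFP-i. The groups overlapped, since GFP-i replicate 1 exceeded RasV12 replicate 3. The log2 difference was 0.32 ± 0.18 (SE, 95% confidence interval -0.08 to 0.71; adjusted p = 0.284), and it ran from 0.14 to 0.46 with single libraries left out.

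zip encodes the heavy chain, the motor itself, on 2R, 24990570 to 25011965 on the minus strand. It stood at 807, 824 and 897 CPM in RasV12 and at 698, 866 and 709 CPM in GFP-i, with GFP-i replicate 2 inside the RasV12 range. The difference was 0.15 ± 0.13 (95% confidence interval -0.13 to 0.43; adjusted p = 0.471), with 0.04 to 0.22 over the fits without 1 library. The light chain to heavy chain ratio was 0.320, 0.391 and 0.232 in RasV12 and 0.354, 0.221 and 0.275 in GFP-i. These ranges overlapped (exact permutation test, two-sided p = 0.7, where the smallest possible p is 0.1).

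Profilin and cofilin, which act on opposite steps of the actin cycle, did not pass the test either. chic encodes profilin, which loads monomers onto growing ends, and lies on 2L, 5972115 to 5981018 on the minus strand. Levels were 553, 804 and 735 CPM in RasV12 and 680.0, 699 and 644 CPM in GFP-i. RasV12 libraries lay on both sides of all 3 GFP-i libraries, and the coefficient of variation was 18.7% in RasV12 against 4.14% in GFP-i. The difference was 0.05 ± 0.15 (95% confidence interval -0.28 to 0.38; adjusted p = 0.868), and it was negative without RasV12 replicate 2 (-0.07).

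tsr encodes cofilin, called Twinstar, which severs and depolymerizes filaments, and lies on 2R, 24044453 to 24046805 on the minus strand. It was at 740, 821 and 622 CPM in RasV12 and at 648, 492 and 588 CPM in GFP-i. RasV12 replicate 3 fell below GFP-i replicate 1, so the groups overlapped. The difference of 0.34 ± 0.15 (95% confidence interval 0.01 to 0.67) had an unadjusted p of 0.0452 and an adjusted p of 0.166. Omitting 1 library at a time gave 0.19 to 0.44. The cofilin to profilin ratio was 1.34, 1.02 and 0.847 in RasV12 and 0.953, 0.703 and 0.912 in GFP-i (exact permutation test, two-sided p = 0.4). For dia to ena the same exact permutation test gave p = 0.6. The 3 ratios were chosen after the levels were seen, and adjusted over them each exact p was 0.7.

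Neither filament crosslinker passed the test, and both had overlapping groups. sn encodes Fascin, which packs filaments into tight bundles such as those of bristles, and lies on X, 7964024 to 7986601 on the plus strand. It was measured at 401, 359 and 447 CPM in RasV12 and at 367, 419 and 372 CPM in GFP-i. The ranges overlapped broadly and the difference was 0.06 ± 0.13 (95% confidence interval -0.22 to 0.35; adjusted p = 0.794), negative with scaling by library size only (-0.10).

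cher encodes Filamin, a crosslinker of loose filament networks, on 3R, 17091533 to 17125389 on the minus strand, and was the 1 member with a negative difference. Levels were 57.8, 56.3 and 62.8 CPM in RasV12 and 76.0, 59.5 and 62.2 CPM in GFP-i. GFP-i replicate 1 was the highest of the 6 and the other libraries overlapped. The difference was -0.16 ± 0.14 (95% confidence interval -0.47 to 0.15; adjusted p = 0.510), or -0.27 to -0.10 with 1 library omitted. The 3' end of cher is overlapped by 406 bp of cal1 on the other strand, with 854 counts for cal1 and 5146 for cher over the 6 libraries, and no source used here gives the strand setting of the counting, so reads of the pair may not be told apart there. For tsr, the overlap with IntS1 on the other strand is 6 bp.

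Moe encodes Moesin, the fly's ezrin, radixin and moesin protein, which ties actin filaments to the membrane and keeps epithelial cells polarized. It lies on X, 8873012 to 8898332 on the minus strand, a span of 25321 bp. Levels were 1341, 833 and 1322 CPM in RasV12 and 812, 988 and 864 CPM in GFP-i. RasV12 replicates 1 and 3 stood above all GFP-i libraries, while RasV12 replicate 2 fell between GFP-i replicates 1 and 3. The coefficient of variation in RasV12 was 24.7%, the highest of the 10 members there. The difference was 0.39 ± 0.18 (SE, 95% confidence interval -0.02 to 0.80; adjusted p = 0.195). Without RasV12 replicate 2 it was 0.58 and passed (adjusted p = 0.00550), but with any other single library left out it did not (adjusted p up to 0.464).

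**Figure D2:**
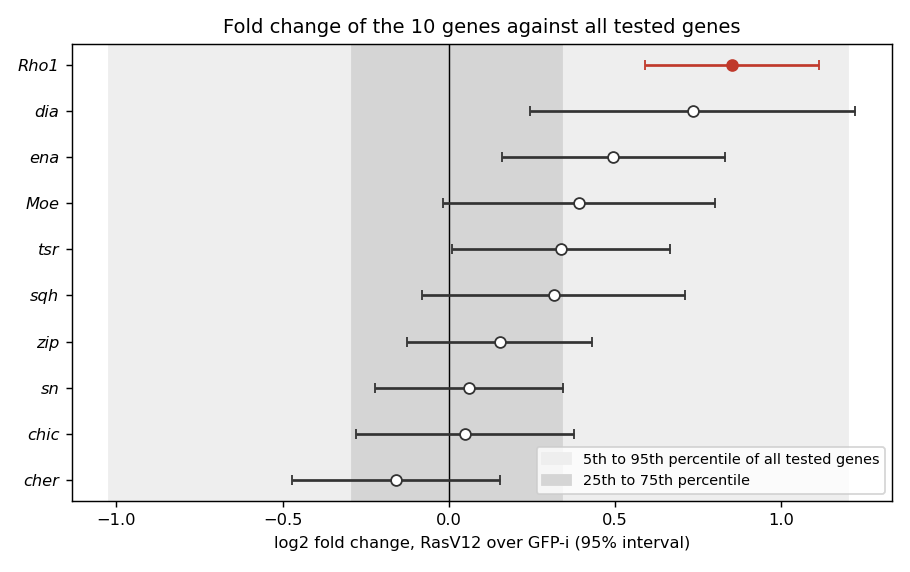
Points are the log2 difference, RasV12 over GFP-i, of each member, with horizontal bars for the 95% confidence interval from edgeR over 3 libraries per genotype. Rho1 at 0.85 is the member past the adjusted threshold, and the intervals of dia, ena and tsr also lie above 0 without passing after adjustment.

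Between the library pairs described above, the spread within a genotype ran with gene span for 6 of the 10 members. Between RasV12 replicates 2 and 3, Moe, ena, sn and zip, which span 21396 to 25321 bp, had log2 differences of -0.67, -0.43, -0.32 and -0.12. Between GFP-i replicates 1 and 2 the same 4 genes had -0.28, -0.25, -0.19 and -0.31. The short genes sqh and tsr went the other way, with 0.63 and 0.40 in RasV12 and 0.37 and 0.40 in GFP-i. The median over all genes spanning under 5 kb was 0.08 in RasV12 and 0.13 in GFP-i. Exceptions were cher, the longest member at 33857 bp, with -0.16 and 0.35, and dia, at 9910 bp, with 0.45 and 0.63. The median of genes spanning 5 to 20 kb was -0.13 in RasV12 and -0.07 in GFP-i, and chic, at 8904 bp, had 0.13 and -0.04. Rho1, a short gene, had -0.14 and -0.06, opposite in sign to its span class. The part of gene span in the members' genotype differences was not tested beyond the fits that follow.

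**Figure D3:**
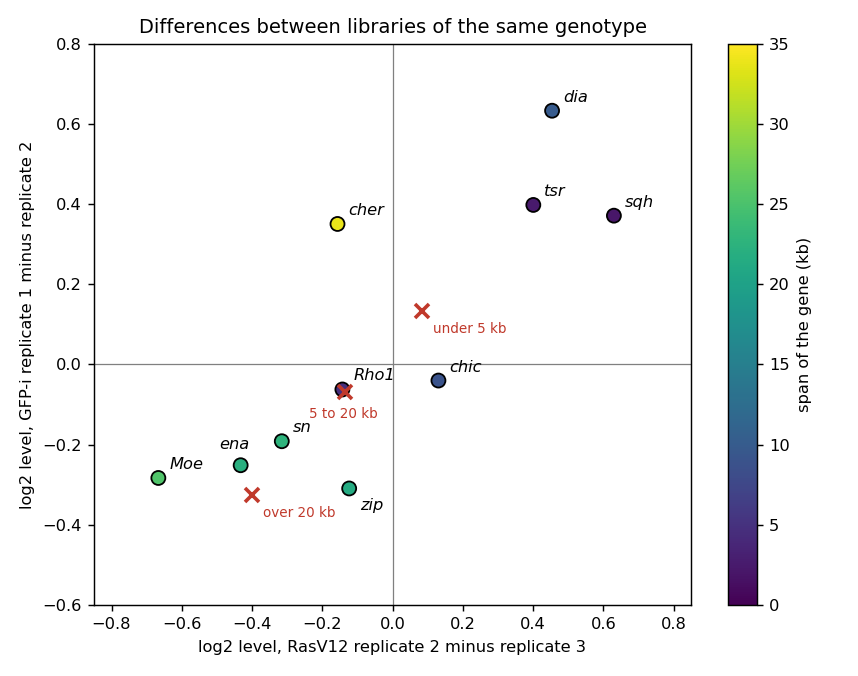
Each circle is a member, placed by its log2 level difference between RasV12 replicates 2 and 3 (x axis) and between GFP-i replicates 1 and 2 (y axis), and coloured by gene span in kb. Crosses are medians over all tested genes of 3 span classes. Moe, ena, sn and zip lie at lower left beside the class over 20 kb, sqh, tsr and dia lie at upper right, and Rho1 is near 0 on both axes.

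Leaving out RasV12 replicate 2 and GFP-i replicate 1 together, a choice made after seeing the data, Rho1, ena and Moe were called, where 8.84% of genes were higher. The differences were then 0.58 for ena (adjusted p = 0.0169) and 0.52 for Moe (adjusted p = 0.0168). A long-gene load was computed for each library from the same counts. It was the median log2 level of genes spanning over 20 kb less that of genes under 5 kb. Members of those spans, ena and Moe among them, are part of it, so a fit that uses it is not independent of them. With this load as a covariate, also added after seeing the data, Rho1, dia, ena and Moe were called, where 12.4% of genes were higher. The values were 0.66 for dia (adjusted p = 0.00857), 0.54 for ena (adjusted p = 0.00374) and 0.44 for Moe (adjusted p = 0.0336). In neither fit did sqh, zip, chic, tsr, sn or cher pass.

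**Figure D4:**
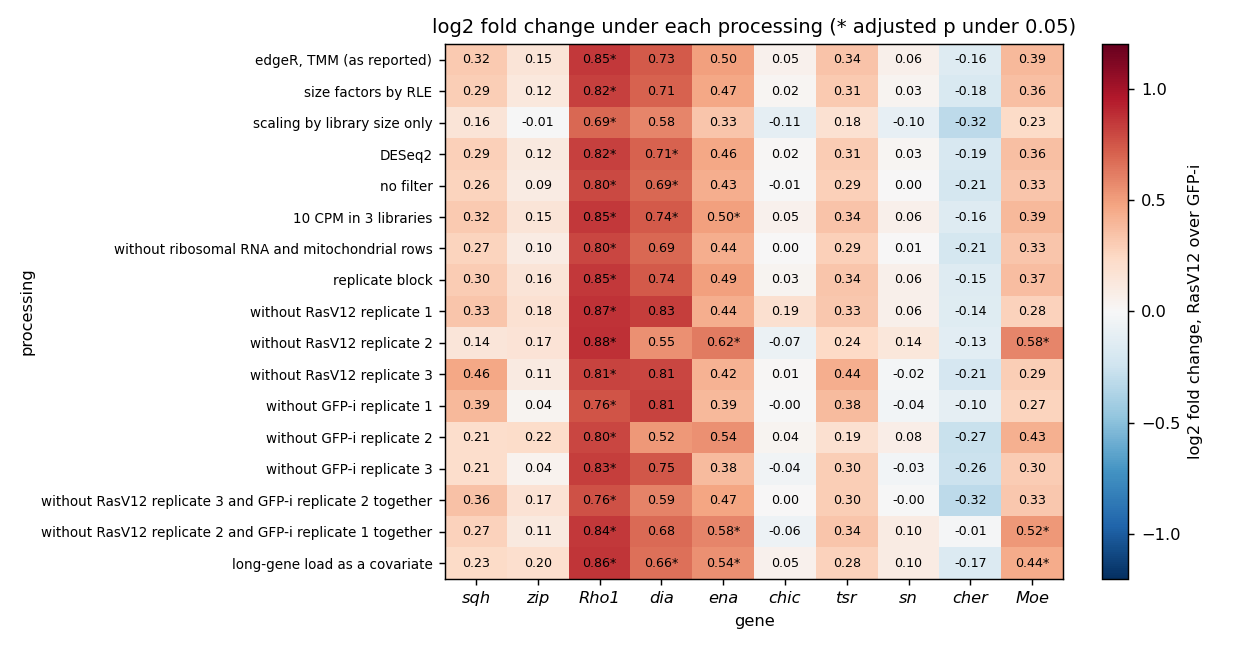
Rows are the fits and columns are the 10 members, with the colour and the printed value giving the log2 difference, RasV12 over GFP-i, and an asterisk marking an adjusted p under 0.05. Rho1 is past the threshold in every fit drawn, while dia, ena and Moe pass in some and the remaining members in none.

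Among the other genes of the actin cytoskeleton, 122 were matched on 9 lists and 119 were tested, and 7 of these lists are described below. Of these, 12 rose, 3 fell and 104 did not pass, or 12.6% changed against 14.8% of all tested genes, so the share called was near the background. In the 7 lists described, the share of tested genes that changed ran from 0 to 17.4%. The log2 difference was positive for 75 of the 119, against 51.7% of all tested genes, with a median of 0.13 against 0.02 over all genes. Without a single library the number that changed lay between 6 (without GFP-i replicate 3) and 19 (without RasV12 replicate 2), and it was 8 without RasV12 replicate 3, 8 without GFP-i replicate 1 and 9 without GFP-i replicate 2. With scaling by library size only, 5 rose and 8 fell. Several of the calls named below rest on single libraries, and the adjusted p without them is given beside each.

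Of 8 tested actin and tropomyosin genes none rose and 1 fell, Act42A, a cytoplasmic actin gene, at 249, 298 and 277 CPM in RasV12 against 445, 472 and 396 CPM in GFP-i. Its difference was -0.67 ± 0.13 (adjusted p = 0.00588), and every RasV12 library was lower than every GFP-i library. Act5C, the other cytoplasmic actin gene, was at 1694 to 2140 CPM in RasV12 and 1641 to 1935 CPM in GFP-i (difference 0.04, adjusted p = 0.881, and -0.12 with scaling by library size only). Actin genes share near-identical coding sequence, so reads may be split between copies where they fall outside the 3' untranslated part. For cib, whose product binds actin monomers, the difference was 0.42 (adjusted p = 0.0581, and 0.0341 without RasV12 replicate 1).

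Myosin II light chain kinases, phosphatase subunits and partners were tested for 17 genes, and none passed, with a median of -0.01. The largest difference was that of Mlc-c, 0.58 (adjusted p = 0.107), with every RasV12 library above every GFP-i library. The lowest p-values were those of other genes and went in opposite directions. Septin2, a filament-forming partner of actomyosin, was at 38.1 to 45.3 CPM in RasV12 and 28.5 to 32.1 CPM in GFP-i (difference 0.47, adjusted p = 0.0546). flw, the catalytic subunit of myosin phosphatase, was at 97.6 to 118 CPM and 130 (GFP-i replicate 1) to 149 CPM, a difference of -0.38 (adjusted p = 0.0794). Among 9 unconventional myosins, jar, the myosin VI gene, rose by 0.60 ± 0.14 from levels of 40.1 to 46.3 CPM to 57.1 to 70.6 CPM (adjusted p = 0.0167). It no longer passed with RasV12 replicates 1 or 3 left out (0.0710 and 0.0523), nor with GFP-i replicates 1 or 3 left out (0.0890 and 0.108). Myo31DF, a myosin I gene, had a difference of 0.50 (adjusted p = 0.112).

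Of 23 nucleation genes 4 rose and none fell, which is 17.4% changed against 14.8% of all tested genes, with a median of 0.12. That share is near the background and counts Arpc3B, which was tested only because of its RasV12 libraries. Of the 4, Frl and Fhos encode formins, the protein class of Diaphanous. Frl was at 346, 311 and 308 CPM in RasV12 and 210 (GFP-i replicate 1), 194 and 218 CPM in GFP-i, a rise of 0.64 ± 0.12 (adjusted p = 0.00565). Fhos was at 267, 281 and 279 CPM against 173, 200 and 175 CPM and rose by 0.59 ± 0.12 (adjusted p = 0.00844), not passing with GFP-i replicates 1 or 3 left out (0.0678 and 0.0959). Arpc3B, a subunit of the Arp2/3 complex, had low levels, 2.08 ± 0.325 CPM in RasV12 against 0.277 ± 0.219 CPM in GFP-i (SD, n = 3 each), from 28, 19 and 35 counts in RasV12 and 2, 9 and 2 in GFP-i. It passed the filter through the RasV12 libraries, and 2 GFP-i libraries lie under the floor of 3 counts. Its fitted difference of 2.81 ± 0.52 (adjusted p = 0.00518) ran from 2.46 to 3.67 with 1 library omitted, so its size is uncertain. Vrp1, which binds the Wiskott-Aldrich syndrome protein, rose by 0.75 ± 0.19 (adjusted p = 0.0278). It overlaps mei-S332 on the other strand, and its call was lost without RasV12 replicate 3 (0.0771) or GFP-i replicate 1 (0.0676), 2 (0.129) or 3 (0.152).

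Of 13 severing, capping and turnover genes, twf rose and Swip-1 fell. twf, or Twinfilin, a monomer-binding and capping protein, was at 9.47 to 10.9 CPM against 5.89 to 6.72 CPM (0.73 ± 0.19, adjusted p = 0.0309). It overlaps 140up on the other strand, and among single libraries its call remained only without RasV12 replicate 2, with adjusted p up to 0.114 elsewhere. Swip-1, an actin-binding protein with EF hands, was at 30.3 to 35.8 CPM against 42.6 to 58.2 CPM (-0.56 ± 0.16, adjusted p = 0.0393), not passing with RasV12 replicates 1 or 3 left out (0.136 and 0.0613), nor with GFP-i replicates 2 or 3 left out (0.0623 and 0.142). Of 16 crosslinking and spectrin genes, Lasp and Vinc rose. Lasp, an actin-binding LIM and SH3 protein, was at 28.5, 31.1 and 40.2 CPM against 22.3, 18.8 and 20.6 CPM (0.69 ± 0.18, adjusted p = 0.0257), lost without RasV12 replicate 3 (0.0861) or any GFP-i replicate (0.0684, 0.113 and 0.134). Vinc, the vinculin gene of adhesion sites, was at 25.3, 24.0 and 25.9 CPM against 17.3, 15.7 and 18.2 CPM (0.55 ± 0.15, adjusted p = 0.0354), and its call remained only without RasV12 replicate 2, with adjusted p up to 0.160 without another library.

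The transcription factor genes that read the state of actin did not pass. For bs, the serum response factor gene, the difference was -0.15 (adjusted p = 0.621), and for its cofactor Mrtf it was 0.12 (adjusted p = 0.638). bs overlaps its antisense transcript asRNA:bsAS, and the 2 cannot be told apart where counting ignores strand.

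**Figure D5:**
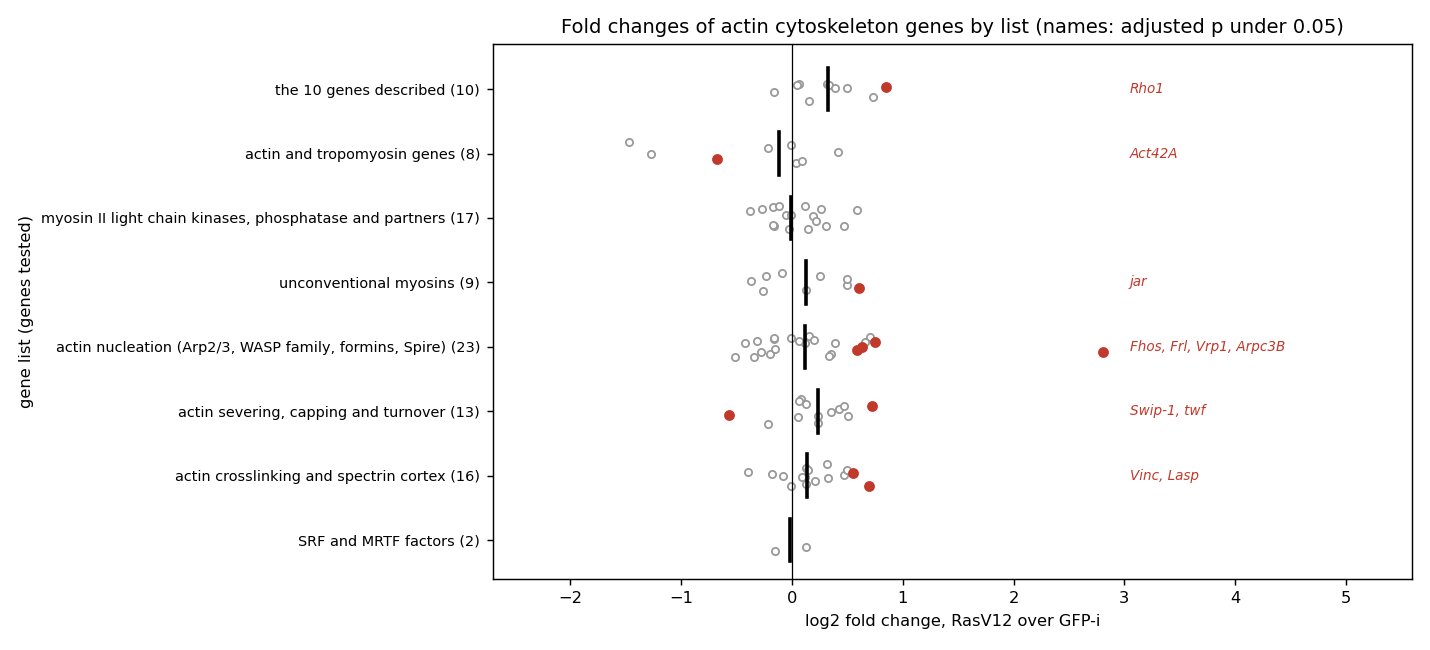
Circles are tested genes, placed by their log2 difference, RasV12 over GFP-i, with 1 row for the 10 genes and for each of 7 other lists, and black bars are list medians. Filled red circles passed the adjusted threshold and are named at the right. Rho1 is the filled circle among the 10 genes described, and the medians of the lists drawn lie between -0.11 and 0.33.

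Markers of other cells that could be in the sort differed between the genotypes, and their part in the members' values was not tested. The marker calls below stand beside 9.15% of all tested genes higher in RasV12 and 5.68% lower. The summed level of 11 muscle contractile genes was 499 to 637 CPM in RasV12 and 336 to 525 CPM in GFP-i, most of it from sls, which was at 414 to 508 CPM against 239 to 339 CPM. Most of the list went the other way, since 2 of the 10 tested genes had a positive difference and the median was -0.46. These 2, sls and Mlc2, rose, and up fell. With RasV12 replicate 1 left out neither sls (adjusted p = 0.0559) nor up (0.0781) passed. Neither did sls with GFP-i replicates 1 or 3 left out (0.0720 and 0.102), nor up with RasV12 replicate 2 (0.0502) or GFP-i replicates 2 or 3 left out (0.0577 and 0.0696). Mhc, the muscle myosin heavy chain gene, was at 25.4 to 32.96 CPM against 29.7 to 44.5 CPM, and Mf at 26.8 to 55.5 CPM against 42.9 to 80.8 CPM (-0.53, adjusted p = 0.300). The sum of 8 muscle precursor markers was lower, at 213 to 263 CPM in RasV12 and 374 to 450 CPM in GFP-i, with Ama, Him, zfh1 and htl falling (zfh1 not with RasV12 replicate 1 or GFP-i replicates 2 or 3 left out, adjusted p = 0.0716, 0.0574 and 0.0717). Him, at 24, 13 and 7 counts in RasV12 against 205, 160 and 168, passed the filter through the GFP-i libraries. So did htl, at 14, 4 and 8 counts against 35, 53 and 32. The call of htl was lost with RasV12 replicate 3 and GFP-i replicate 2 both left out (adjusted p = 0.0912). The defining gene of this list, twi, was at 4.94 to 5.61 CPM against 6.77 to 19.4 CPM (adjusted p = 0.0512, and 0.0141 with GFP-i replicate 1 left out). For ct the levels were 52.8 to 78.5 CPM against 49.5 to 78.6 CPM. Mef2, a muscle transcription factor gene on the same list, was at 46.8 to 53.8 CPM in RasV12 and 35.1 to 42.6 CPM in GFP-i, a difference of 0.33 in the opposite direction that did not pass (adjusted p = 0.152).

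The 8 haemocyte markers summed to 14.2 to 18.7 CPM in RasV12 and 19.8 to 34.1 CPM in GFP-i, of which 2 of 5 tested fell, vkg and Cg25C. With 17, 6 and 14 counts in RasV12 and 56, 72 and 58 in GFP-i, vkg passed the filter through the GFP-i libraries. For srp the difference was -0.49 (adjusted p = 0.268). The defining genes Hml, eater and He were each under 1 CPM in every library. The 5 tracheal markers summed to 596 to 678 CPM and 525 to 631 CPM, where btl, serp and verm rose (verm not with GFP-i replicate 3 left out, adjusted p = 0.0651). The tracheal regulator trh had a difference of -0.58 (adjusted p = 0.0610, and 0.0291 with GFP-i replicate 1 left out). For vvl, at 166 to 228 CPM against 250.1 to 306 CPM, the groups did not overlap and the difference was -0.46 (adjusted p = 0.0668, passing in 5 of 16 alternatives). Wing disc epithelium also expresses vvl, serp and verm. The 7 genes listed as dorsal disc markers, not all of them particular to dorsal cells, summed to 1487 to 1518 CPM and 1443 to 1546 CPM. Most of this even sum came from sd, Ser and ap, and it covers genes that went both ways. It does not measure the purity of the sort. The pouch gene nub fell from 158, 150.5 and 144 CPM in GFP-i to 11.9, 12.6 and 13.3 CPM in RasV12 (-3.58 ± 0.14, adjusted p = 3.14e-07) and vg changed by -1.45 ± 0.20 (adjusted p = 9.88e-04), while mirr rose by 0.73 and Dr by 0.87. The differences of sd (0.04) and Ser (0.46) did not pass (adjusted p = 0.862 and 0.141), and that of sd changes sign with the scaling. In bulk RNA, fewer cells of a type and less RNA per cell cannot be told apart.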

How the data were processed

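RNA of sorted dorsal wing disc cells was read by 3' mRNA sequencing in 3 RasV12 and 3 GFP-i libraries, per the labels. The authors deposited 1 table of raw, whole-number counts per gene and library. Its log2 fold changes and their errors, and its p-values and adjusted p-values, are from the authors' own comparison, per the file headers. The submitters' processing notes name FastQC, bedtools 2.17, Trimmomatic 0.33, DESeq2, STAR 2.3.0e and the build dm6. The program used for counting, its strand and the annotation release remain not given in the sources used here.

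Tests were run with edgeR 4.0.16 in R 4.3.3 (TMM scaling, filterByExpr, robust quasi-likelihood F test, two-sided, Benjamini-Hochberg adjustment over 9134 tested genes, threshold 0.05). 5099 genes fell under the filter. Standard errors come from the F statistics. Of the members, 9 were matched by the symbol column and zip, whose symbol is blank, by description and identical coordinates. Of 163 entries on the other lists 161 were matched, and TpnC47D and NimC1 are not analysed here. Identical coordinates in Ensembl 115 were found for 98.5% of 14209 matched genes.

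On simulated data with 9134 genes 79% of 2-fold changes and 99% of 4-fold changes were called, and 6.81% of its calls were unchanged genes. Smaller changes, such as those of most members, were not simulated. The mean chi-square per gene between libraries of 1 genotype was 22.7 to 95.5, so taken whole no 2 of them agreed within sampling noise. That mean includes ribosomal RNA and mitochondrial rows. Rows with large counts can weigh most in it, so it does not describe a typical gene. No molecular identifiers are stated, so floors cover counting error only.

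The members and lists were chosen with earlier results of these data known. Named were all members, the 2 lowest p-values of each actin list described and, where calls went both ways, the lowest of the other direction, all passing genes where a count was 5 or fewer, and the highest 2 markers of each cell type list. Act5C, Mlc-c, Mhc, twi, trh, Hml, eater, He, Mef2 and ap are named in addition, chosen after their values were seen. Alternatives were other scalings, DESeq2 1.42.0, other filters, a replicate block and left-out libraries. Promoter windows were not used here, and 2 of the actin gene lists are not reported here beyond their part in the totals.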

Additional observations from a re-analysis of the deposited data

How the results depend on the processing

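Rho1 passed in all 16 alternatives (adjusted p from 6.08e-08 to 0.0254), and sqh, zip, chic, tsr, sn and cher passed in none. The number of members called, 1 in the fit reported, was 2 under DESeq2, 2 with no filter, 3 with a minimum of 10 CPM, and between 1 and 3 without single libraries. It was 3 with RasV12 replicate 2 and GFP-i replicate 1 both left out and 4 with a covariate for the long-gene load, both chosen after seeing the data. The number of genes called, 1355, lay between 741 and 1521 without single libraries and was 678 with RasV12 replicate 3 and GFP-i replicate 2 both left out. Of the other actin cytoskeleton genes 15 were called, between 6 and 19 without single libraries, 4 with RasV12 replicate 3 and GFP-i replicate 2 both left out and 30 with the long-gene load, fits in which 7.5% and 21.5% of all genes were called. Where members or libraries differ between fits, the cause was not tested.

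Equal replicate numbers did not deviate together (correlations -0.034, -0.424 and -0.112), so the fit reported did not pair them. These values cannot show which samples were prepared together. Unlike numbers had the highest correlations, 0.562 for RasV12 3 with GFP-i 2 and 0.432 for RasV12 2 with GFP-i 1. The lowest was -0.508, for RasV12 3 with GFP-i 1. With a replicate block, 701 genes, 6 of the other actin genes and 1 member (Rho1) were called.

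Signs turned for small differences. With scaling by library size only, where the split of calls was 615 higher and 911 lower, zip was -0.00904, sn -0.101, chic -0.108, Mrtf -0.0414, ct -0.0503, sd -0.124 and Act5C -0.117. With no filter chic was -0.00600, sd -0.0207 and Act5C -0.0137, and without ribosomal RNA and mitochondrial rows sd was -0.0153 and Act5C -0.00805. With the long-gene load as a term Act5C was -0.00211. Without single libraries chic ran from -0.0685 to 0.191, sn from -0.0360 to 0.136, ct from -0.0708 to 0.313, Mrtf from -0.0656 to 0.182, sd from -0.0242 to 0.0739 and Act5C from -0.0763 to 0.101. With RasV12 replicate 3 and GFP-i replicate 2 both left out sn was -0.000414, bs 0.0253, sd -0.0274 and Act5C -0.0181. With RasV12 replicate 2 and GFP-i replicate 1 both left out chic was -0.0616 and Act5C -0.0238. With 3 libraries per genotype, a difference whose interval includes 0 has no resolved direction, and 3' counts say nothing of protein, phosphorylation or activity.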
